A study of Homo sapiens with 8 samples.

Results

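A set of 10 secreted signalling genes were examined in a human osteosarcoma cell line: the CXC chemokines CXCL1, CXCL2, CXCL3 and CXCL8, the CC chemokines CCL2 and CCL5, the IL-6 family cytokines IL6, IL11 and LIF, and the colony-stimulating factor CSF1. They were chosen by name, not by a measured value, and all 10 were found among the 54174 gene symbols of the deposited expression table. The cells were 143B, an established osteosarcoma line derived from HOS cells and transformed with a Kirsten ras oncogene. The 4 control libraries came from 143B cells given a vector plasmid (genotype labelled control), and 4 knockout libraries from 143B cells given a plasmid named NELL1KO (genotype labelled NELL1 knockout). Both groups were collected at 48 h after a transient transfection with the reagent TransIT-LT1, so every library, controls included, comes from transfected cells, and the labels name no selection or clone. The series design calls the 4 libraries of each group biological replicates but does not name separate cultures, so p-values measure the spread between these libraries, which may be technical.

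Chemokines are small secreted proteins that guide migrating leukocytes along a gradient. CXCL1, CXCL2, CXCL3 and CXCL8 act on neutrophils through the receptors CXCR1 and CXCR2, CCL2 draws monocytes through CCR2, and CCL5 draws T cells and monocytes. IL-6 and IL-11 each bind a receptor chain of their own and LIF binds LIFR, and all signal through the shared subunit gp130, encoded by IL6ST, to JAK kinases and STAT3. In bone these cytokines act on osteoblasts and on osteoclast formation, and CSF1 is the growth factor that macrophages and osteoclast precursors need to survive. Transcription of many of these genes is induced by NF-kappaB, often with AP-1 or C/EBP factors, and their mRNAs are short-lived.

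The start-site sequences are shown because 5 of these genes share a short NF-kappaB motif at nearly the same place, and the NF-kappaB genes themselves are compared with them further on. RefSeq start-site windows (GRCh38.p14, 250 bases before to 50 bases after the start) were matched for 6 of the 10 genes: CXCL1, CXCL2, CXCL3, CXCL8, IL6 and IL11. The last 120 bases before each start are printed 5′ to 3′ on the gene's own strand. Capitals mark matches to an NF-kappaB motif (the consensus by name, or its core GGANTTTCC) or to the AP-1 motif TGANTCA, on either strand, and overlapping NF-kappaB matches are merged.
CXCL1: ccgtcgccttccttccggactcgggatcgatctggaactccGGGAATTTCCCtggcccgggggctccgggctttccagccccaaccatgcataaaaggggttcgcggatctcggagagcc
CXCL2: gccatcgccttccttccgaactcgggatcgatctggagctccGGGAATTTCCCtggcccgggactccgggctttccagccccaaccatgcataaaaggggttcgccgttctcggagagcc
CXCL3: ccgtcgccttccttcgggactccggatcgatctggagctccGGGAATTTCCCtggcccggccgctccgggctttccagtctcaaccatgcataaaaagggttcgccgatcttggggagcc
CXCL8: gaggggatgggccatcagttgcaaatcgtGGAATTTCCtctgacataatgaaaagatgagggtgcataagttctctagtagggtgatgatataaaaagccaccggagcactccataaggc
IL6: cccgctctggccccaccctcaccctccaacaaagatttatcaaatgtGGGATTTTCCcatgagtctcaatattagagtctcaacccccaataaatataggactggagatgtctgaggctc
IL11: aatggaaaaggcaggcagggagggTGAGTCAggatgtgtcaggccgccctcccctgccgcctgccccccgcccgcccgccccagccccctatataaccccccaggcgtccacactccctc

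These stretches are chr4:73869273-73869392 (plus strand) for CXCL1, chr4:74099196-74099315 (minus) for CXCL2, chr4:74038690-74038809 (minus) for CXCL3, chr4:73740449-73740568 (plus) for CXCL8, chr7:22727080-22727199 (plus) for IL6 and chr19:55370464-55370583 (minus) for IL11. The NF-kappaB core GGANTTTCC was found in 5 of the 6 windows and in 1.64% of all 35116 windows of the table. Counted from the start site, its last base was at position -70 in CXCL1 and CXCL3, -69 in CXCL2, -83 in CXCL8 and -64 in IL6. The NF-kappaB consensus matched CXCL1, CXCL2, CXCL3 and IL6, against 11.3% of all windows. The core is found in fewer windows than the consensus but also matched CXCL8, and how its letters were chosen is not recorded. Its share among these genes is therefore a description and not a test. The AP-1 motif TGANTCA matched CXCL8 (from -137 to -131) and IL11 (from -96 to -90), against 7.71% of all windows, and the C/EBP motif TTGCNNAA matched CXCL2 and IL6, against 10.5%. The printed stretches of CXCL1, CXCL2 and CXCL3 are near copies of one another, so their NF-kappaB matches are not separate occurrences in these counts. A match describes the letters of the window and was not tested for binding.

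The CXC genes also lie together. CXCL8 (chr4:73740569-73743716), CXCL1 (chr4:73869393-73871308), CXCL3 (chr4:74036589-74038689) and CXCL2 (chr4:74097040-74099195) occupy one stretch of chromosome 4. CXCL1, CXCL2 and CXCL3 are close copies of one another. In the longest coding transcripts of GENCODE release 29, 5.73% of the 50-base stretches of CXCL1, 9.24% of those of CXCL2 and 5.26% of those of CXCL3 occurred in another gene, in each case another of these 3, while none of the 1656 stretches of CXCL8 did. How reads shared by these copies were assigned is not given in the sources used here, so single values of CXCL1, CXCL2 and CXCL3 are less certain than those of CXCL8.

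The deposited values are on a log2 scale that was quantile normalized, so every library has the same median of 1.77, and between 14911 and 15171 genes had a value per library. Depth is unknown and no counting error can be given. NELL1 was listed at -6.97, -6.97, -4.53 and -5.00 in controls 1 to 4 and at -4.82, -5.87, blank and -6.96 in knockouts 1 to 4, so its RNA does not check the labels. The libraries are not evenly spaced. Over the 9016 tested genes (no blank in any of the 8 libraries and a mean log2 value not under 1), the SD of the difference was 0.12 between knockouts 1 and 2, 0.13 between knockouts 3 and 4, and 0.46 to 0.50 across these pairs. Among the controls it was 0.10 between libraries 1 and 2 and reached 0.29 between libraries 1 and 3. Of 9 osteoblast and mesenchymal markers, VIM, CD44 and SPP1 passed the filter, RUNX2 was at 0.05 to 0.43, COL1A2 was at or below -4.82 where listed, and SP7 was blank. Of 8 leukocyte markers only CD68, a lysosomal gene of many cells, passed it (5.54 to 5.90), and PTPRC and CD3E were blank. Of the 3 tested mesenchymal markers VIM was called, at -0.43 (limma adjusted p = 0.0425), and SPP1 (0.45) and CD44 (-0.10) were not. Of the 3 tested epithelial markers KRT8 was called, at 0.38 (limma adjusted p = 0.0175), and KRT18 (0.19) and EPCAM (-0.32) were not. Neither call held with the close knockout pairs averaged (limma adjusted p = 0.132 for VIM and 0.104 for KRT8). VIM was also lost with the replicate number as a block (limma adjusted p = 0.0507), and in the 8 fits that leave out 1 library VIM stayed called in 2 and KRT8 in 5. The part of these markers in the results was not tested. In bulk RNA, fewer cells of a kind and less RNA per cell cannot be told apart.

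None of the 3 genes that entered the limma fit of knockout against control libraries was called. Among the genes compared by exact two-sided permutation instead, LIF alone had an unadjusted p under 0.05 (0.0286). CXCL8, IL11 and CSF1 were past the filter, and 0 of these 3 had a limma adjusted p under 0.05, against 13.1% of all 9016 tested genes. None of the 3 had an unadjusted limma p under 0.05 either, against 29.7% of all tested genes. So few genes cannot set a count of 0 apart from these shares. CXCL1, CXCL2, CXCL3, CCL2, IL6 and LIF had a value in every library but a mean under 1, and CCL5 was blank in 7 of 8 libraries. In a fit without the filter on the mean, 0 of the 9 genes with complete values passed, against 8.3% of 13943 genes. LIF was the 1 gene of the 9 whose knockout and control values did not overlap, a property of 22.9% of the genes past the filter and 20.4% of all genes with complete values.

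**Figure D1:**
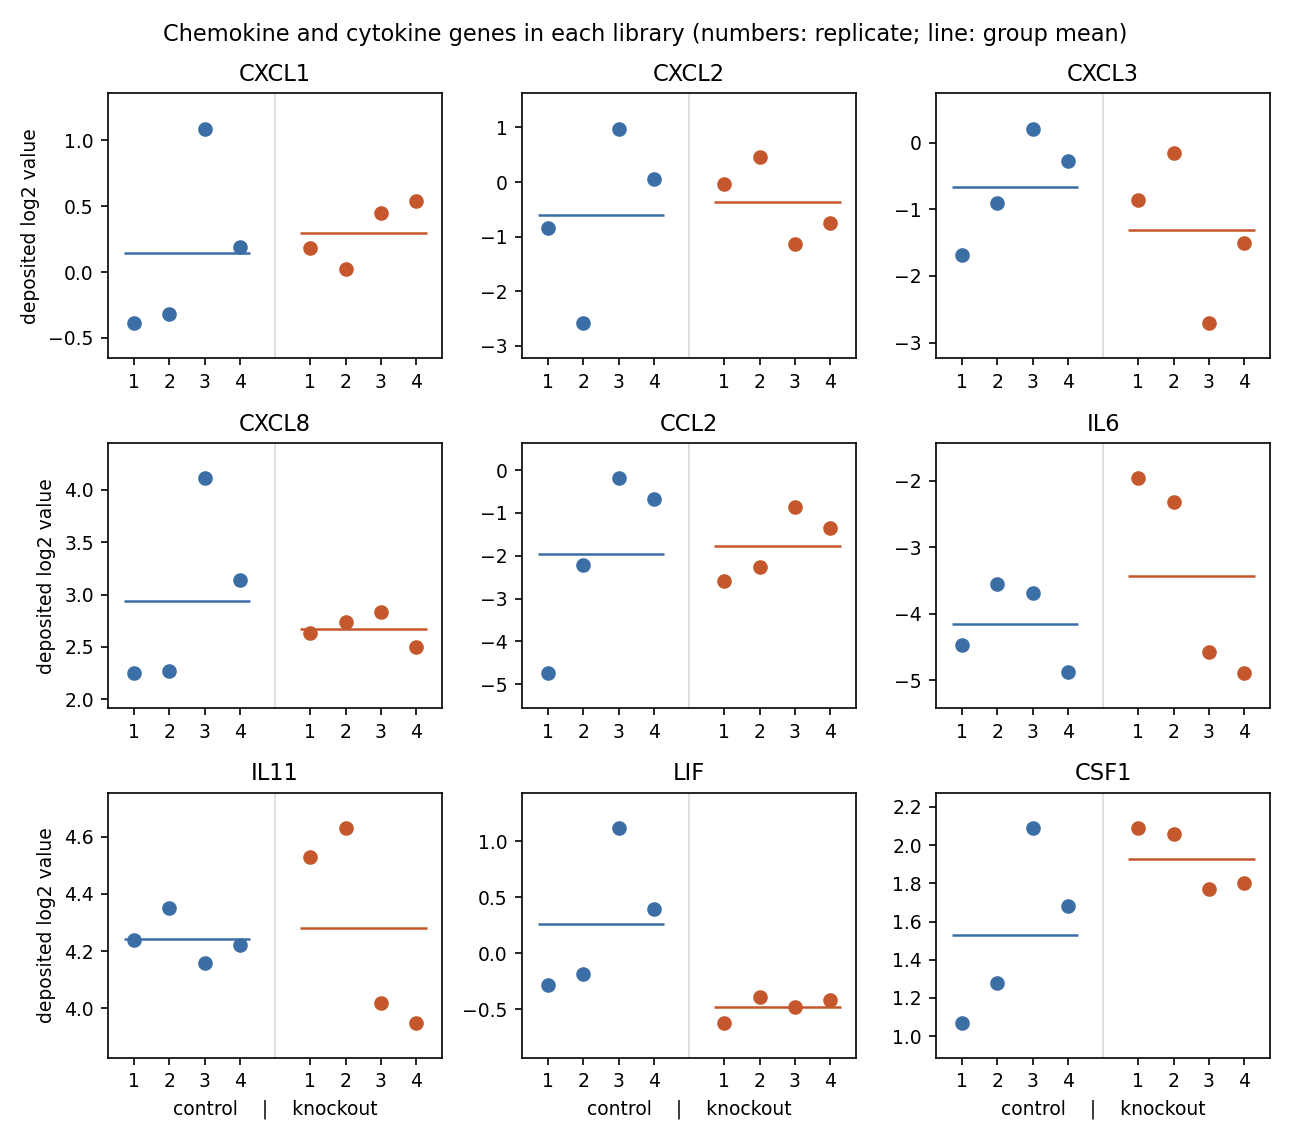
Deposited log2 value (y axis, a separate scale in each panel) of the 9 genes with a value in every library, by replicate number (x axis) for the 4 control libraries (blue, left) and the 4 knockout libraries (orange, right). Horizontal lines are group means. Control library 3 is the highest of the 8 libraries in 7 panels, and only the LIF groups do not overlap.

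CXCL8, the interleukin-8 gene and the CXC chemokine past the filter, was at 2.25, 2.27, 4.11 and 3.14 in controls 1 to 4 and at 2.63, 2.74, 2.83 and 2.50 in knockouts 1 to 4. The knockout libraries lay close together, between the low controls 1 and 2 and the high controls 3 and 4. The group means were 2.94 ± 0.88 and 2.67 ± 0.14 (SD, n = 4 each). Their difference was -0.27 ± 0.37 (SE; limma adjusted p = 0.669), with a 95% interval of -1.12 to 0.58, which is 0.459-fold to 1.5-fold. Without control 3 the difference turned to 0.12 (limma adjusted p = 0.760).

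The copies CXCL1, CXCL2 and CXCL3, which encode the GRO chemokines, were all low. CXCL1 was at -0.39, -0.32, 1.09 and 0.19 in controls 1 to 4 and at 0.18, 0.02, 0.45 and 0.54 in the knockouts. All 4 knockout values lay inside the control range. The difference was 0.15 (exact two-sided permutation test, p = 0.743). It went to 0.00 without control 2 and to -0.03 without control 1.

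CXCL2 was at -0.84, -2.59, 0.98 and 0.06 in controls 1 to 4 and at -0.03, 0.45, -1.13 and -0.75 in the knockouts. Its difference of 0.23 was far inside a control spread of 1.52 (SD; exact two-sided permutation test, p = 0.83), and it was -0.43 without control 2 and -0.04 without knockout 2. CXCL3 was at -1.69, -0.91, 0.21 and -0.27 in controls 1 to 4 and at -0.86, -0.16, -2.71 and -1.50 in the knockouts. The CXCL3 difference was -0.64 (exact two-sided permutation test, p = 0.429). In CXCL2 and CXCL3, unlike CXCL1, the values of knockouts 3 and 4 lay below those of knockouts 1 and 2.

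CCL2, the monocyte chemoattractant, had the widest control range of the 9 genes. It was at -4.74, -2.21, -0.19 and -0.68 in controls 1 to 4 and at -2.58, -2.26, -0.87 and -1.34 in the knockouts. The control range of 4.55 on the log2 scale enclosed all knockout values, and the difference of 0.19 was within it (exact two-sided permutation test, p = 0.943). It was -0.74 without control 1 and -0.11 without knockout 3. Both groups had lower values in libraries 1 and 2 than in libraries 3 and 4. CCL5, a chemokine best known from T cells, had a single value of -5.47, in control 3, and no comparison was possible.

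IL6 was low in the controls, at -4.47, -3.55, -3.69 and -4.87, where each library had a median of 1.77 and a lowest value of -10.5. It was at -1.96 and -2.31 in knockouts 1 and 2 and at -4.58 and -4.89 in knockouts 3 and 4. The first pair lay above every control, and the second pair lay within or just below the control range. The difference over all libraries was 0.71 with an unfiltered limma 95% interval of -0.96 to 2.37 (exact two-sided permutation test, p = 0.429). At such values, with depth unknown, no counting error can be given for the difference within replicates 1 and 2 (1.87), so its size is uncertain.

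IL11, a gp130 cytokine that osteoblasts secrete, was the steadiest of these genes in the controls. It was at 4.24, 4.35, 4.16 and 4.22 in controls 1 to 4, at 4.53 and 4.63 in knockouts 1 and 2 and at 4.02 and 3.95 in knockouts 3 and 4. The controls lay between the pairs of knockout libraries, one pair above all controls and one below. The means were 4.24 ± 0.08 and 4.28 ± 0.35 (SD, n = 4 each), a difference of 0.04 ± 0.16 (SE; limma adjusted p = 0.892). Its 95% interval was -0.32 to 0.40, or 0.801-fold to 1.32-fold, and the sign changed without knockout 1 (-0.04) or without knockout 2 (-0.08).

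LIF, which maintains stem cells and acts on osteoblasts through LIFR and gp130, was lower in all 4 knockout libraries. It was at -0.28, -0.18, 1.12 and 0.40 in controls 1 to 4 and at -0.62, -0.39, -0.48 and -0.42 in knockouts 1 to 4. The knockout values were tight, and every one of them was below the lowest control. The means were 0.26 ± 0.64 and -0.48 ± 0.10 (SD, n = 4 each), and the difference of -0.74 is a ratio of 0.597 (p = 0.0286 by exact two-sided permutation, which is the lowest value that 4 libraries against 4 can reach). That p is not adjusted for the other genes, and the unfiltered limma fit gave an adjusted p of 0.154. With the replicate numbers as pairs, all 4 pairs had less LIF in the knockout, and flipping the signs of the pairs exactly gave an exact p of 0.125, the lowest that 4 pairs allow. With each close knockout pair averaged, the exact permutation p was 0.133, and without any 1 knockout library it was 0.0857 to 0.143. These settings have fewer arrangements than 4 libraries against 4, so their p-values are not directly comparable with 0.0286. Without control 3 the difference was -0.46 (exact permutation p = 0.0286).

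CSF1, the macrophage and osteoclast growth factor, was at 1.07, 1.28, 2.09 and 1.68 in controls 1 to 4 and at 2.09, 2.06, 1.77 and 1.80 in knockouts 1 to 4. All knockout libraries were above controls 1, 2 and 4, and control 3 was narrowly above knockout 1, equal to it at the digits printed. The means were 1.53 ± 0.45 and 1.93 ± 0.17 (SD, n = 4 each), a difference of 0.40 ± 0.21 (SE; limma adjusted p = 0.239). The 95% interval was -0.07 to 0.87, or 0.95-fold to 1.83-fold. CSF1 was called only when control 3 was left out, among the fits that leave out 1 library: the difference was then 0.59 (limma adjusted p = 0.0476), in a fit that called 15% of all tested genes against 13.1% with it.

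Much of the variation in these genes lay among the controls. Control 3 was the highest of the 8 libraries for 7 of the 9 genes (all but IL6 and IL11), and it was the highest for 13.1% of all 13943 genes with complete values. Controls 3 and 4 both exceeded controls 1 and 2 for the same number, 7 of 9, against 35.6% of those genes. CXCL8 spanned 3.61-fold among controls that received the same plasmid. Only 2 of the 9016 tested genes had a larger control SD than CXCL8, namely FOS (1.44), an AP-1 subunit induced within minutes of stimulation, and RTEL1 (0.90). These were looked up after the values were seen. CSF1 (0.45) was exceeded by 70 of the 9016 genes, against a median control SD of 0.10. IL11 (0.08) was exceeded by 5498. Among the 4927 genes with complete values below the filter, only GPR75-ASB3 (3.57, also looked up afterwards) had a larger control SD than CCL2 (2.05), and 19 had a larger one than CXCL2 (1.52). The control SD exceeded the knockout SD for 6 of the 9 genes, and for 32.4% of all genes with complete values. Knockout SDs were 0.14 for CXCL8, 0.17 for CSF1 and 0.10 for LIF, and the knockouts were the more variable group for IL6 (1.51), CXCL3 (1.08) and IL11 (0.35). These comparisons of spread were chosen after the values were seen.

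FOS was high in both groups where the replicate number was 3 or 4 (5.17 and 3.97 in controls, 5.60 and 5.55 in knockouts) and low where it was 1 or 2 (2.15 and 2.29 in controls, 1.28 and 2.01 in knockouts). CXCL8 followed the same order in the controls and not in the knockouts. The part of FOS in the chemokine values was not tested.

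Because of this spacing, differences were also taken in 2 sets, replicates 1 and 2 and replicates 3 and 4. The sign depended on the set for 8 of the 9 genes, which were higher in the knockouts within replicates 1 and 2 and lower within replicates 3 and 4; this combination held for 24.3% of all 13943 genes. LIF was the exception, at -0.28 and -1.21. In that order of sets, the differences were 0.45 and -0.15 for CXCL1, 1.93 and -1.46 for CXCL2, and 0.79 and -2.08 for CXCL3. They were 0.42 and -0.96 for CXCL8, 1.06 and -0.67 for CCL2, and 1.87 and -0.46 for IL6. For IL11 they were 0.29 and -0.21, and for CSF1 0.90 and -0.10.

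The change of sign came from different libraries in different genes. For CXCL8 the knockout sets differed by -0.02 and the control sets by 1.36 (replicates 3 and 4 minus replicates 1 and 2). For IL6 the reverse held, with -2.6 in the knockouts and -0.27 in the controls, and IL11 was like IL6, with -0.60 and -0.11. In fits restricted to 1 set, CSF1, CXCL8 and IL11 were all called higher in replicates 1 and 2 (limma adjusted p = 0.000221, 0.00119 and 0.00855), where 59.7% of all tested genes were called. In replicates 3 and 4 CXCL8 alone of the 3 was called, lower (limma adjusted p = 0.0288), against 33.1% of all tested genes. Residual spread in these fits comes only from pairs of libraries. Both knockout pairs and controls 1 and 2 were close, while controls 3 and 4 were further apart (SD of the difference 0.19). Whether the sets differed was not tested.

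**Figure D2:**
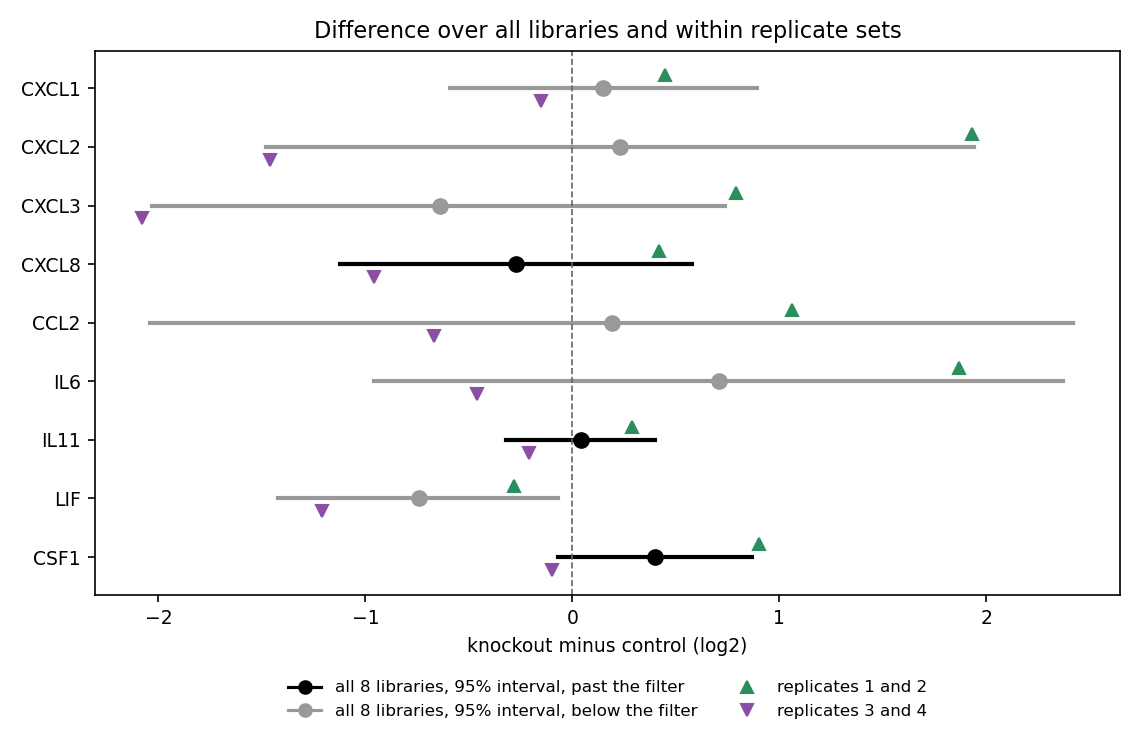
Difference in log2 value, knockout minus control (x axis), for the 9 genes with complete values (y axis). Circles with bars are the difference over all 8 libraries with its 95% limma interval (black, genes past the filter; grey, genes below it, from the fit without the filter), and triangles are the differences in each replicate set (upward, 1 and 2; downward, 3 and 4); the triangles lie on opposite sides of 0 for every gene but LIF.

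The genes around these ligands were then counted from lists of pathway members. Over all tested genes 7.02% were called higher and 6.1% lower in the knockouts, and the median log2 fold change was 0.01. Of 16 other chemokines, 6 were blank and none was past the filter. Among these and the CXC and CC ligands described above, CXCL8 was therefore the only chemokine tested. Of 21 other cytokines 4 were tested, with a median log2 fold change of -0.44, and 1 was called. IL1B, the inflammatory cytokine IL-1 beta, fell by 0.86, from 4.57 ± 0.03 to 3.71 ± 0.21 (SD, n = 4 each; SE 0.10; limma adjusted p = 0.00239). It was at 4.55 to 4.61 in the controls and 3.45 to 3.88 in the knockouts, with no overlap, and stayed called in all 8 fits that leave out 1 library. IL1A, its close relative, was -0.17 within replicates 1 and 2 and -1.40 within replicates 3 and 4 and was not called (limma adjusted p = 0.132).

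Among 16 receptors, 6 were tested, 1 was called, and the median was -0.32. The called gene was IL6ST, the shared gp130 subunit, which fell by 0.37 ± 0.09 (SE; limma adjusted p = 0.0293), from 4.84 to 5.18 in the controls to 4.53 to 4.76 in the knockouts. Its adjusted p was 0.0473 with the replicate block and 0.145 with the knockout pairs averaged, and it stayed called in 2 of the 8 fits without 1 library. The ligand-specific chains IL6R and IL11RA, and LIFR, a signalling chain that LIF shares with other cytokines, were not called: IL6R was at -0.42, LIFR at -0.18 and IL11RA at 0.59 (limma adjusted p = 0.292, 0.250 and 0.0581). Receptors that answer these chemokines were listed in few libraries, CXCR1 in 3 and CCR2 in 1, and CXCR2 was blank. CSF1R was at -4.08 to -3.07 in all 8 libraries.

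Of 13 JAK-STAT signalling and feedback genes, 9 were tested and 1 was called, with a median of -0.08. PIAS3, an inhibitor of STAT3, was lower by 0.33 (limma adjusted p = 0.0484). It was called in none of the 8 fits without 1 library, and its adjusted p was 0.0706 with the replicate block. STAT3 itself was at -0.08 (limma adjusted p = 0.629). SOCS3, a STAT3 target that feeds back on gp130, was at 1.57 and 1.68 in knockouts 1 and 2 and at 3.04 and 3.06 in knockouts 3 and 4, against 1.30 to 2.07 in the controls (limma adjusted p = 0.235).

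The NF-kappaB, AP-1, C/EBP and IRF1 list had the largest count: of 23 genes 19 were tested and 8 called, 6 lower and 2 higher, with a median of -0.09. The share of 42.1% stands beside 13.1% of all tested genes, and NF-kappaB genes were known from earlier results to be among those that changed. The subunit genes RELB and NFKB2 fell by 1.65 and 0.91 (limma adjusted p = 0.00427 and 0.0176), and NFKBIA, which encodes the inhibitor IκBα and is itself an NF-kappaB target, fell by 1.00 ± 0.10 (SE; limma adjusted p = 0.00133). NFKBIA was at 5.13 to 5.48 in the controls and 4.16 to 4.42 in the knockouts, with no overlap. CHUK and IKBKG, which encode parts of the IκB kinase complex, were higher by 0.31 and 0.30 (limma adjusted p = 0.0317 and 0.0342). The other 3 called genes were JUNB (-0.71), NFKB1 (-0.51) and RELA (-0.32), with limma adjusted p-values of 0.00117, 0.0462 and 0.0270. RELB, NFKBIA and JUNB stayed called in all 8 fits that leave out 1 library and with the knockout pairs averaged (limma adjusted p = 0.027 for each), where the other 5 did not (0.0743 to 0.147). With the replicate block, NFKB1, RELA, IKBKG and CHUK were not called (limma adjusted p = 0.0545, 0.067, 0.0634 and 0.0706).

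Of the 5 ligand genes with the NF-kappaB core in the sequences printed above, only CXCL8 was tested in the same fit; its difference was -0.27 and it was not called. CXCL1, CXCL2, CXCL3 and IL6 were below the filter and could not be called there; their differences were 0.15, 0.23, -0.64 and 0.71. Whether the change in the NF-kappaB genes differs from that in these ligands was not tested. None of the 6 tested genes among 8 regulators of cytokine mRNA decay was called (median 0.05).

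**Figure D3:**
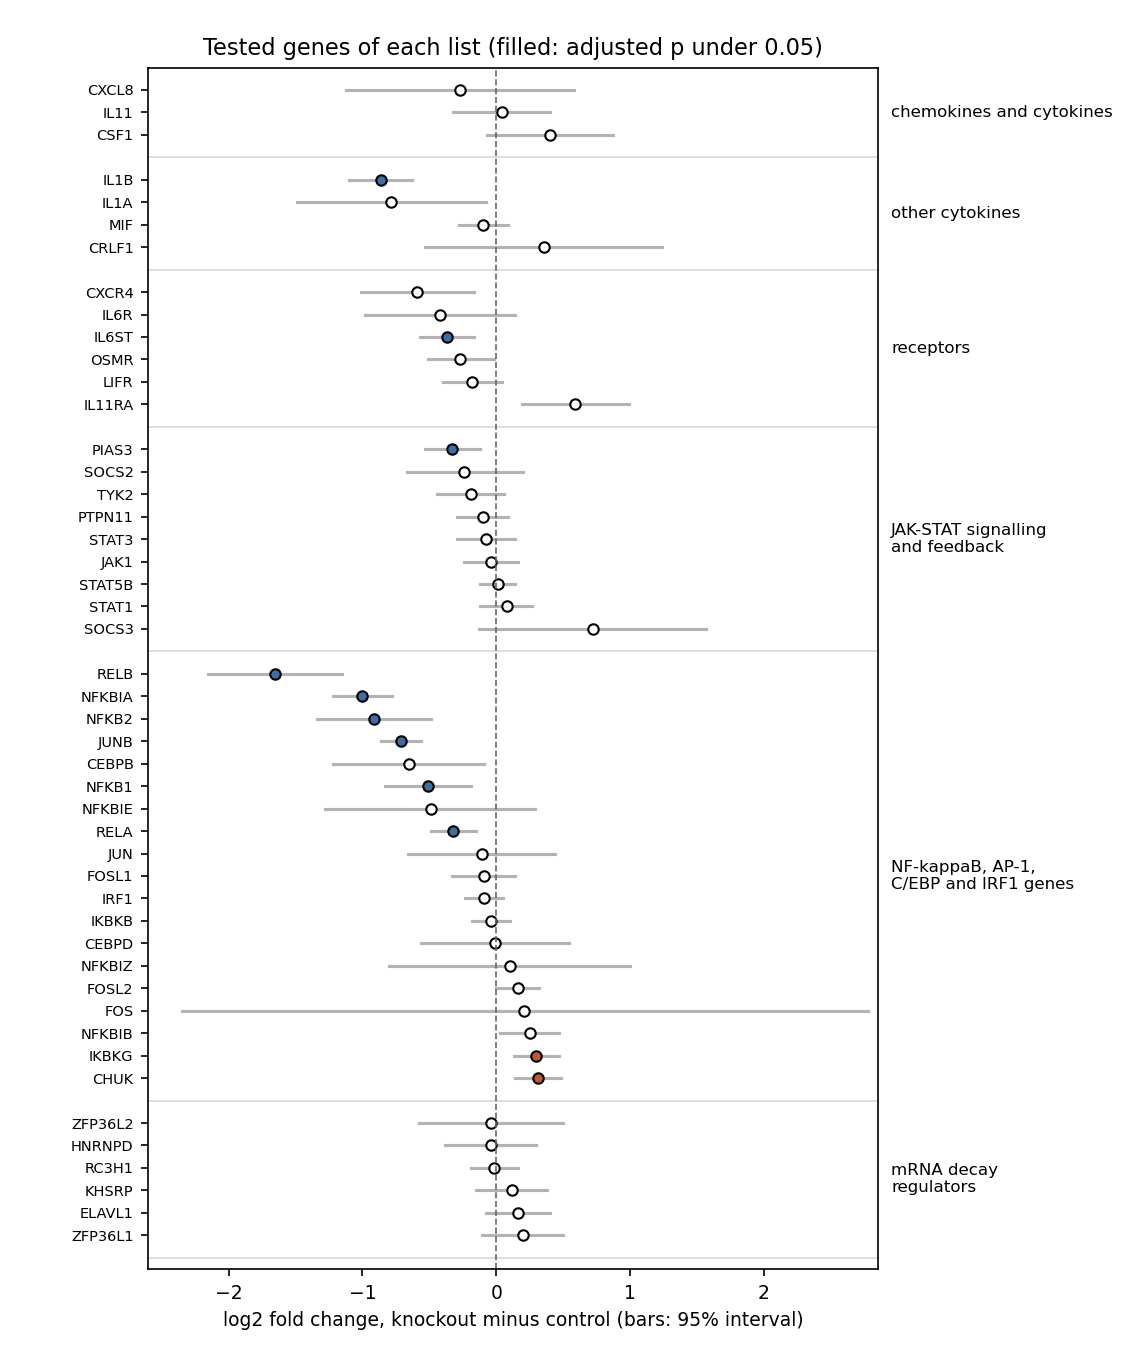
Log2 fold change, knockout minus control, with 95% limma intervals (x axis, bars) of every tested gene (y axis) in 6 lists; filled points passed an adjusted p of 0.05 (blue lower, orange higher) and open points did not. Filled points are RELB, NFKBIA, NFKB2, JUNB, NFKB1, RELA, IKBKG and CHUK in the NF-kappaB list, and IL1B, IL6ST and PIAS3 elsewhere; CXCL8, IL11 and CSF1 are open.

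The tested genes with values most like each ligand over the 8 libraries were listed as a description, by Pearson's r of log2 values. The libraries include close pairs, so few of the 8 points are separate. For CXCL8 they were EGLN2 (r = 0.982, Spearman's rho = 0.976), SLC39A9 (0.974, rho 0.929) and CEBPD (0.970, rho 0.976). CEBPD encodes a C/EBP factor, and was at 1.04, 1.04, 2.20 and 1.60 in controls 1 to 4 and at 1.30 to 1.59 in the knockouts, the same order of controls as CXCL8. For IL11 they were FBXO42 (0.994), DAGLB (0.993) and METTL15 (0.991), and for CSF1 they were DDX28 (0.995), NDUFB10 (0.995) and DBF4 (0.989). None of these 9 genes was itself called (limma adjusted p from 0.228 to 0.985).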

How the data were processed

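RNA from 8 samples of transfected 143B cells (4 vector control, 4 NELL1 knockout, by sample title) was sequenced from stranded total-RNA libraries after TRIzol extraction, per the labels' protocols. The submitters' processing notes name bcl2fastq, Partek 7.0 and GRCh38; aligner, counting, annotation and the unit before the logarithm are not given in the sources used here. The deposited log2 values have the same distribution in every library, that is, they were quantile normalized before they were deposited, which removes any change common to most genes. Blank cells were treated as missing. No column was left out. No read totals are given, so precision rests on the spread between libraries.

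Knockout and control were compared with limma 3.58.1 in R 4.3.3 (no trend, no covariate) over all 9016 genes with complete values and a mean of at least 1, with Benjamini-Hochberg adjustment over all of them; called means an adjusted p-value under 0.05. Genes below the filter were compared by exact two-sided permutation of the 8 libraries. Same-numbered libraries deviated together (correlation across genes 0.24, 0.27, 0.29 and 0.20 in pairs 1 to 4), so the replicate number was also fitted as a block. Pairs of different number within 1-2 and within 3-4 reached 0.11 to 0.31, and pairs across these sets were at -0.3 to -0.15. The likeness therefore followed the sets 1-2 and 3-4 and was not particular to the replicate number. Other alternatives are in the closing section.

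The genes, pathway lists and comparisons were chosen with earlier results of these data known. Genes named from a list were its called genes (at most 3 rises and 3 falls). Also named were the 3 genes most like each tested ligand, NELL1 and the marker genes. Any other was named after its values were seen. These were JUNB, NFKB1, RELA, STAT3, SOCS3, IL1A, CSF2, IL12A, TSLP, the receptors not called, FOS, RTEL1 and GPR75-ASB3. No protein sequences were used. Promoter sequences and coordinates are RefSeq GRCh38.p14.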

Additional observations from a re-analysis of the deposited data

How the results depend on the processing

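The count of 0 ligands called held under the replicate block (924 genes called in all), no filter (1157), a stricter mean filter of 3, which leaves IL11 alone among the ligands (729), a pseudocount of 1, a variance trend, centring on library medians, quantile normalization repeated on the tested genes, averaged knockout pairs (108) and a term for replicates 1-2 against 3-4 (2274). At an unadjusted limma p under 0.05 it was also 0 of 3. The count was 3 in replicates 1-2 alone (5380 genes called) and 1 in replicates 3-4 alone (2987), and 0 to 1 when 1 library was left out (391 to 1353). The replicate block changed the call of none of the 3 tested ligands. LIF was below the filter and could not be called in either fit. Its exact permutation p was 0.0286 without the block. With the replicate numbers as pairs, the exact sign-flip permutation p was 0.125, the lowest that 4 pairs allow. Signs turned with a pseudocount of 1 for CXCL2 (-0.01) and CCL2 (-0.08); in replicates 1-2 for CXCL3 (0.79) and CXCL8 (0.42); and in replicates 3-4 for CXCL1 (-0.15), CXCL2 (-1.46), CCL2 (-0.67), IL6 (-0.46), IL11 (-0.21) and CSF1 (-0.10). Leaving out 1 library gave differences of -0.03 to 0.47 for CXCL1, -0.43 to 0.76 for CXCL2, -0.50 to 0.12 for CXCL8, -0.74 to 0.78 for CCL2 and -0.08 to 0.15 for IL11. IL6 (0.22 to 1.19), CSF1 (0.25 to 0.59), CXCL3 (-1.03 to -0.18) and LIF (-0.93 to -0.46) kept their signs. With blank cells set to the lowest value, the CCL5 control mean went from -5.47 to -9.23. The cause of these changes was not tested. Depth is unknown, which limits every gene below the filter most.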

Other observations

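Among the other cytokines below the filter on the mean, CSF2, which encodes the granulocyte-macrophage colony-stimulating factor GM-CSF, was picked out after its values were seen. It was at -0.21, -0.25, 0.48 and -0.12 in controls 1 to 4 and at -1.21, -1.25, -1.80 and -1.33 in knockouts 1 to 4, with no overlap. The difference was -1.37 ± 0.20 (SE), and the fit without the filter gave a limma adjusted p of 0.0111. That fit called 8.3% of 13943 genes, and the groups did not overlap for 20.4% of the same genes. CSF2 was not checked with averaged knockout pairs, with the replicate block or with 1 library left out. Unlike the 8 ligands whose sign depended on the replicate set, CSF2 was lower in the knockouts in both sets.

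IL12A and TSLP, further cytokines below the filter, followed the knockout pairs as IL6 did and were also picked out after their values were seen. IL12A was at 1.28 and 1.32 in knockouts 1 and 2, -0.29 and -0.45 in knockouts 3 and 4, and -0.64 to -0.08 in the controls. TSLP was at 0.04 and 0.10 in knockouts 1 and 2, -2.71 and -3.15 in knockouts 3 and 4, and -2.63 to -0.64 in the controls. Neither was called without the filter (limma adjusted p = 0.297 and 0.947).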
